A study of Mus musculus with 28 samples.

Results

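The oligodendrocyte lineage was followed through 9 genes in the cerebellum of Ts1Cje mice, a model of Down syndrome, and of their euploid counterparts during the first days after birth. The genes were chosen by name, with earlier results of these data known. From these same arrays, the study itself lists Olig1 as overexpressed in Ts1Cje mice at P0 and P7. It also ran separate arrays on outer granule layers dissected at P0. There it lists Olig1 and Olig2 as higher in Ts1Cje mice without adjustment, and neither passed its adjusted threshold. Its discussion also names both among genes for which no consistent difference could be shown. Olig1 and Olig2 are present in 3 copies in Ts1Cje mice. Pdgfra, Sox10, Mbp, Cnp, Mag, Mog and Trf are present in 2 copies in both genotypes. Each was read by 1 probe of a 25344-probe mouse array, so they make 9 of the 23219 genes and unnamed probes measured. The 28 arrays carried 1 Ts1Cje and 1 euploid cerebellum each, from individual mice, whose strain the labels give as B6EiC3SnF1/J A/a and the study's text as a mixed B6C3SnF1/Orl background. On 16 arrays both mice had the same age, with 4 arrays at each of P0, P3, P7 and P10, and on 12 arrays the ages were neighbouring ones, with 4 arrays for each of the steps P0 to P3, P3 to P7 and P7 to P10. The older mouse was Ts1Cje on 2 of the 4 arrays of each step and euploid on the other 2. Ts1Cje mice carry an extra copy of a segment of chromosome 16 from Sod1 to Zbtb21 (Znf295), inherited from the father, and the study's text describes a small deletion on chromosome 12 as well, so the genotypes differ by both. Every array paired a male with a female, and the labels do not say which. Sex was not read from sex-linked genes of the array either, and it was not in the fit.

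Oligodendrocytes make the myelin sheath that insulates axons. They arise from precursor cells that carry the receptor Pdgfra and depend on the transcription factors Olig1, Olig2 and Sox10, and on differentiation they switch on the genes of myelin, among them Mbp, Cnp, Mag and Mog, while Pdgfra is shut off. In the rodent cerebellum myelination starts in the days after birth and continues for weeks, so the ages studied here cover its onset. The tissue was the whole cerebellum, in which fewer cells of a type and less RNA per cell cannot be told apart.

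The values are log2 ratios, in which 1 stands for a 2-fold difference, and they give no level of a gene within a mouse. Spots near the background were missing, and the 9 genes had 219 values of 252 possible, with all 9 present on 13 arrays. Trf was read on 27 arrays, Mbp on 26, Olig2, Sox10, Cnp and Mag on 25 each, Olig1 on 24, Mog on 22 and Pdgfra on 20. Arrays held between 11354 and 23972 probe values, with standard deviations between 0.42 and 1.76. The array with the fewest values was P10/P7 replicate 2 (the Ts1Cje age is given first), which read Mbp alone of the 9 genes, and P10/P10 replicate 4 read only Mag, Mog and Trf. The array P7/P7 replicate 4 gives P7 in the source name and P3 in the stage label of its euploid mouse. It was taken as P7, and its ratios for the 9 genes lay between -0.07 and 0.07. The Purkinje cell genes Calb1, Car8, Rora and Pcp2 had values on 27, 26, 26 and 25 arrays, and the granule cell gene Zic1 on 24. Some markers of other tissues were read as often, with Hoxb3 of the brainstem on 26, Egr2 of Schwann cells on 25 and Alas2 of blood on 26. Others were read less often, with Chat of the brainstem and Ttr of the choroid plexus on 15 each. Such counts do not identify the tissue, and its label was not tested. Each p-value below rests on the spread of ratios between arrays, in which mouse, sex, dye and array noise are mixed. Those of limma also draw on the variances of other features. The labels name no litters, so litters could not be separated.

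The first question was how the myelin genes behaved with age in both genotypes together. Mbp, which encodes myelin basic protein, a structural protein needed to compact the sheath, had the steepest course of the 9 genes. Between P3 and P7, the older mouse had the higher Mbp signal on 4 of 4 arrays, by 3.31 and 1.56 where the older mouse was Ts1Cje, and by 2.95 and 2.19 where it was euploid. Between P0 and P3 the values were 0.46 and 1.26 with the older mouse Ts1Cje, and 3.17 and 1.33 with the older mouse euploid. Between P7 and P10 they were 1.57 and -1.05 with the older mouse Ts1Cje, and 0.88 and 1.56 with the older mouse euploid. Thus 11 of 12 arrays were higher in the older mouse, and the exception was P10/P7 replicate 2, the array with the fewest values. The mean was 1.60 ± 1.23 (SD, n = 12), and an exact two-sided sign-flip permutation test over the 12 arrays gave p = 0.00195.

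**Figure D1:**
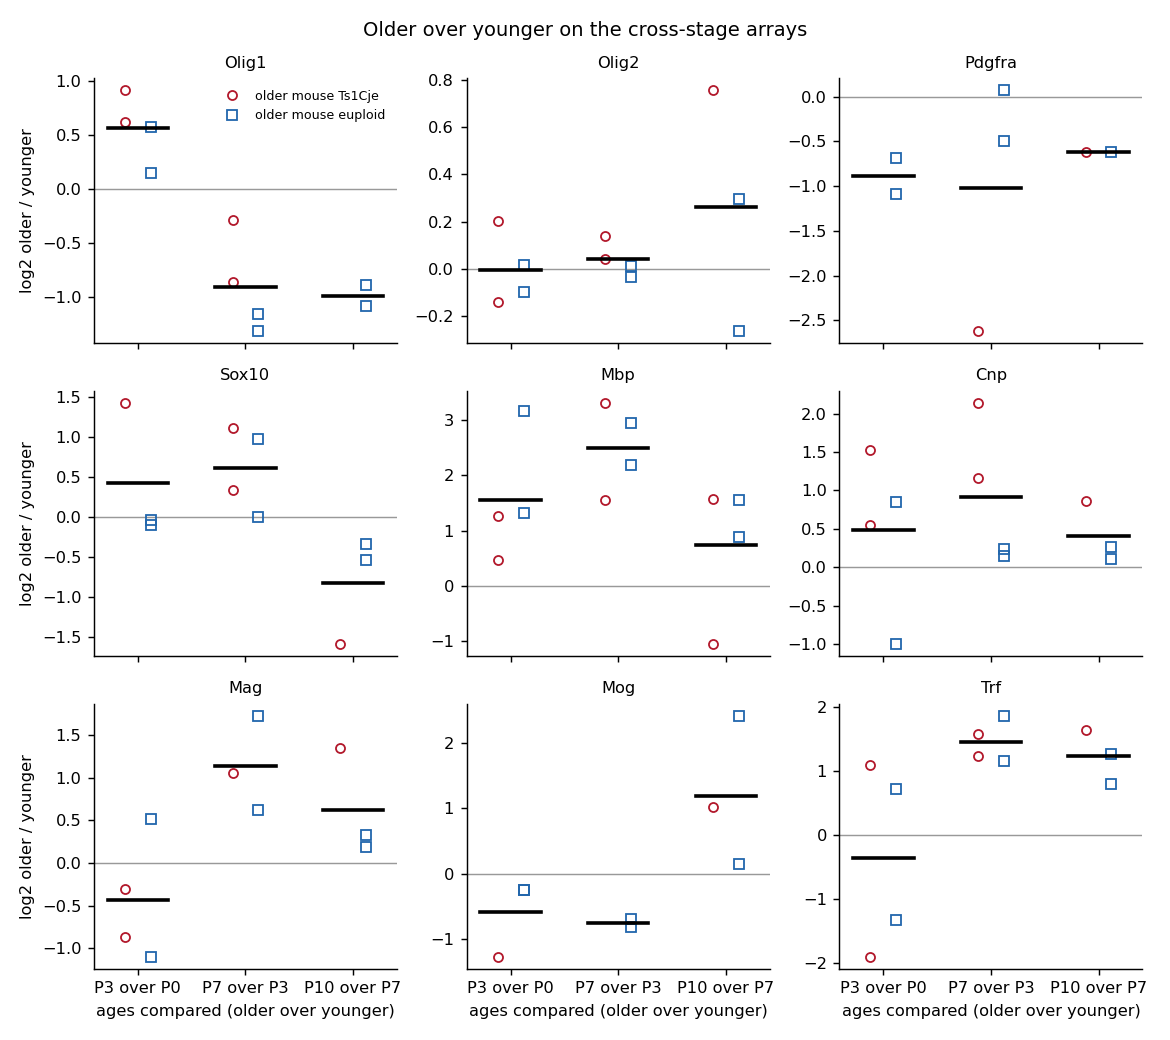
Log2 ratio of the older over the younger mouse on the 12 cross-stage arrays for each of the 9 genes, by the ages compared. Circles are arrays whose older mouse was Ts1Cje, squares those whose older mouse was euploid, and bars the mean. Mbp, Cnp and Trf lay above 0 on all 4 arrays of P7 over P3, Olig1 below 0 on all 4, and Olig2 close to 0.

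In the limma fit over all 28 arrays, Mbp rose between P3 and P7 by 2.50 on the log2 scale, a 5.66-fold difference with a 95% interval of 2.90 to 11.1 (SE 0.47, limma adjusted p = 0.00999). Over the whole span, Mbp was 27.7-fold higher at P10 than at P0, with an interval of 8.69 to 88.5 (log2 4.79, SE 0.81, limma adjusted p = 0.0231). The fitted log2 level relative to P0 was 1.55 at P3, 4.06 at P7 and 4.79 at P10, and neither the step from P0 to P3 (limma adjusted p = 0.372) nor that from P7 to P10 (limma adjusted p = 0.716) passed alone. Within genotypes, the step from P3 to P7 was 2.42 (SE 0.56) in Ts1Cje mice and 2.59 (SE 0.56) in euploid mice, and from P0 to P10 it was 4.95 (SE 0.87) in Ts1Cje mice and 4.63 (SE 0.87) in euploid mice. The call at P3 to P7 was lost without P3/P7 replicate 1, P7/P3 replicate 1 or P3/P7 replicate 2 (2.31, 2.23 and 2.59, limma adjusted p = 0.0635, 0.0835 and 0.0585). That from P0 to P10 was lost without any 1 of 7 cross-stage arrays (4.26 to 4.96, limma adjusted p from 0.0577 to 0.111).

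Trf, which encodes transferrin, the iron carrier that oligodendrocytes make in the brain, also rose between P3 and P7. All 4 arrays of this step were higher in the older mouse, by 1.58 and 1.23 with the older mouse Ts1Cje, and by 1.86 and 1.16 with the older mouse euploid. The fitted change was 1.46, or 2.75-fold with an interval of 1.65 to 4.57 (SE 0.36, limma adjusted p = 0.0418). This call was the closest to the threshold and was lost when any 1 of 16 arrays was left out, with adjusted p from 0.0503 to 0.203 and changes from 1.25 to 1.60. Between P7 and P10, 3 of 3 arrays were higher in the older mouse, by 1.65 on the array with the older mouse Ts1Cje and by 0.80 and 1.27 on those with the older mouse euploid, and the fitted value of 1.31 had a limma adjusted p of 0.307. The 4 arrays of P0 to P3 went both ways, at -1.90 and 1.10 with the older mouse Ts1Cje, and -1.32 and 0.71 with the older mouse euploid. Over 11 cross-stage arrays the mean was 0.74 ± 1.22 (SD), with an exact two-sided sign-flip permutation p of 0.0781.

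Cnp encodes the myelin enzyme 2',3'-cyclic nucleotide phosphodiesterase, one of the earliest proteins of the myelinating cell. It was higher in the older mouse on 10 of 11 arrays, with a mean of 0.62 ± 0.83 (SD, n = 11) and an exact two-sided sign-flip permutation p of 0.0312. At P3 to P7 its values were 1.15 and 2.13 with the older mouse Ts1Cje, and 0.23 and 0.14 with the older mouse euploid. In the fit, P3 to P7 gave 0.92 (SE 0.33, limma adjusted p = 0.199) and P0 to P10 gave 1.90 (3.72-fold, SE 0.61, limma adjusted p = 0.455). Within genotypes, the fitted P3 to P7 steps were 0.96 (SE 0.40) in Ts1Cje mice and 0.87 (SE 0.40) in euploid mice.

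Mag and Mog encode myelin-associated glycoprotein and myelin oligodendrocyte glycoprotein, of the inner and the outer face of the sheath. Mag had values of 1.06 with the older mouse Ts1Cje, and 1.73 and 0.63 with the older mouse euploid, at P3 to P7. All 3 lay above 0, and the fitted step of 1.17 (2.25-fold, SE 0.34) had a limma adjusted p of 0.101. From P0 to P3, 1 of 4 arrays was above 0 (fitted -0.44, SE 0.29), and from P0 to P10 the fitted value was 1.40 (SE 0.57, limma adjusted p = 0.567). Mog was read on only 8 cross-stage arrays and lay below 0 on all 5 arrays of the first 2 steps, from -1.27 to -0.25. At P7 to P10 it lay above 0 on 3 of 3, at 1.02 with the older mouse Ts1Cje, and at 0.14 and 2.41 with the older mouse euploid. The fitted Mog value for that step was 1.24 (SE 0.55, limma adjusted p = 0.504), and for P0 to P10 it was -0.40 with a 95% interval from -2.77 to 1.96. Mog is a late gene of the sheath, and its fitted change from P0 to P10 had the largest SE of the 9 genes (1.13).

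The promoter windows of 2 of these genes are shown because Sox10, one of the factors studied, binds short SOX sites, and because the Cnp and Mag signals were both higher at P7 than at P3. The windows come from RefSeq (GRCm38.p6), which gave one for 5 of the 9 genes, and run from 250 bases before to 50 bases after the transcription start, 5′ to 3′ on the strand of the gene. Capitals mark the hexamers ACAAAG or ACAATG, searched on both strands, so that CTTTGT and CATTGT are the same sites read on the other strand. The Cnp window is chr11:100574689-100574988 on the plus strand, the Mag window (the most upstream of 3 for this gene) chr7:30914873-30915172 on the minus strand, and the window of the three-copy Olig2, added for comparison, chr16:91225300-91225599 on the plus strand.
Cnp: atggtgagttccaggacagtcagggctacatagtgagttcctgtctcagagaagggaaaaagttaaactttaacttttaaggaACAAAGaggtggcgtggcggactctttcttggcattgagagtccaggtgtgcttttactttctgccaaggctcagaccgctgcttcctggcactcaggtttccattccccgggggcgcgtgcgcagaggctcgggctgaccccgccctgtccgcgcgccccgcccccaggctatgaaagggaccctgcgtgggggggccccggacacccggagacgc
Mag: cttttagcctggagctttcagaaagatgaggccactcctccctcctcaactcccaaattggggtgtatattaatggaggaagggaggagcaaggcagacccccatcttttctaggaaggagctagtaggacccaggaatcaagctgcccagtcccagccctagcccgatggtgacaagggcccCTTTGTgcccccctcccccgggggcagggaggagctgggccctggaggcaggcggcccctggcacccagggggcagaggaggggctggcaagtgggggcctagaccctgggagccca
Olig2: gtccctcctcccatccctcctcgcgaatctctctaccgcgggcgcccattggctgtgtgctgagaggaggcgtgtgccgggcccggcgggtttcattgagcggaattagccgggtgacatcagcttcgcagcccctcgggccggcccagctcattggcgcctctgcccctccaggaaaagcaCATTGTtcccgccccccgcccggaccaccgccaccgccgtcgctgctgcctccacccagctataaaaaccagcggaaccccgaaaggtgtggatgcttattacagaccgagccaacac
Each of the 3 windows shown held 1 hexamer. ACAAAG started 167 bases before the start of Cnp, CTTTGT 67 bases before that of Mag and CATTGT 68 bases before that of Olig2. The start used for Cnp is not at the annotated edge of the gene. Of the Mag windows not shown, one held CTTTGT starting 126 bases before its own start, and the most downstream held neither hexamer. Either hexamer was present in 28.6% of all 32851 windows, so these matches are a description of the letters only. The windows of Mog and Pdgfra held neither hexamer. The E-box CANNTG, the kind of motif that Olig factors bind, occurred in 1 place in the Cnp window, in 1 place in the Mag window and not in that of Olig2, and 72.3% of all windows held it. It reads the same kind of letters on both strands, can share bases with the hexamers and is not in capitals.

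Pdgfra, the receptor that marks the precursors, went the other way. On the 7 cross-stage arrays that read it, 6 were lower in the older mouse, with a mean of -0.87 ± 0.85 (SD) and an exact two-sided sign-flip permutation p of 0.0312 (n = 7). Most of these arrays had the older mouse euploid, so this mean and its test are not balanced for genotype. The P3 to P7 values were -2.63 with the older mouse Ts1Cje, and -0.50 and 0.07 with the older mouse euploid. The 2 values of P7 to P10 were -0.62 on both arrays, and those of P0 to P3, both with the older mouse euploid, were -0.68 and -1.09. The fit gave -1.11 for P3 to P7 (SE 0.41, limma adjusted p = 0.232) and -2.72 for P0 to P10 (SE 0.86, limma adjusted p = 0.459). The fitted level at P10 was 0.152 of that at P0, with a wide interval of 0.0427 to 0.540. Both changes depended on single arrays. With each array left out in turn, the P3 to P7 change ran from -1.56 to -0.10. That of P0 to P10 ran from -3.11 to -1.51.

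**Figure D2:**
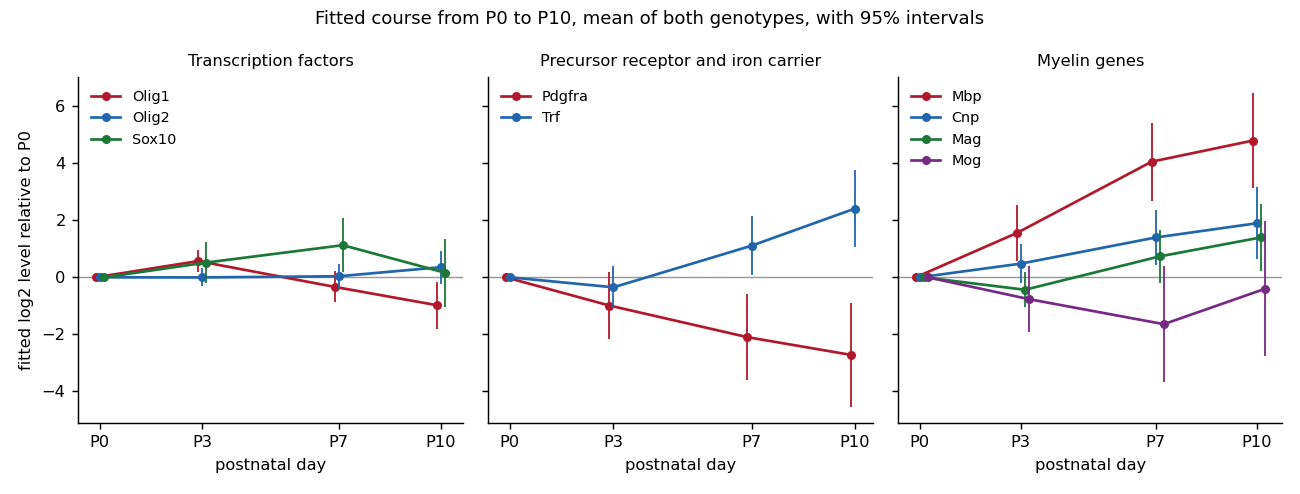
Fitted log2 level relative to P0 (vertical axis) by postnatal day, averaged over both genotypes, with 95% intervals as vertical lines. Mbp climbed to 4.79 at P10, Trf, Cnp and Mag reached 2.41, 1.90 and 1.40, Pdgfra ended at -2.72, Olig1 at -0.98, and Olig2 stayed within 0.36 of its P0 level.

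Of the 3 transcription factors, Olig1 alone had a step past the adjusted threshold, and their courses were not tested against each other. Olig1, which is needed for oligodendrocyte maturation, fell between P3 and P7: the older mouse was lower on 4 of 4 arrays, at -0.86 and -0.29 with the older mouse Ts1Cje, and at -1.16 and -1.32 with the older mouse euploid. The fitted change was -0.90, or 0.534-fold with an interval of 0.410 to 0.696 (SE 0.18, limma adjusted p = 0.0174). Before that, at P0 to P3, 4 of 4 arrays were higher in the older mouse, by 0.63 and 0.92 with the older mouse Ts1Cje, and by 0.58 and 0.15 with the older mouse euploid (fitted 0.57, SE 0.18, limma adjusted p = 0.437). At P7 to P10 both arrays with a value, each with the older mouse euploid, were lower, at -0.89 and -1.08 (fitted -0.64, SE 0.30, limma adjusted p = 0.534). The call at P3 to P7 was lost without P3/P7 replicate 1, P7/P3 replicate 1 or P3/P7 replicate 2 (-0.87, -0.87 and -0.80, limma adjusted p = 0.0837, 0.102 and 0.139). Within genotypes the step was -0.63 (SE 0.22, limma adjusted p = 0.396) in Ts1Cje mice and -1.18 (SE 0.22, limma adjusted p = 0.0164) in euploid mice. The test of the difference between stage effects, which contains this contrast of genotypes, did not pass for Olig1 (moderated F test of limma, unadjusted p = 0.0686, adjusted p = 0.9999).

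Olig2, which is needed to specify the lineage and stays on in mature oligodendrocytes, showed no step past the threshold. Its P3 to P7 values were 0.14 and 0.04 with the older mouse Ts1Cje, and -0.04 and 0.01 with the older mouse euploid, the narrowest spread of any of the genes at any step with 4 arrays. The fitted step was 0.04 with a 95% interval of -0.27 to 0.35, and P0 to P10 was 0.36 (interval -0.22 to 0.93). Sox10, which acts downstream of Olig2 and drives myelin genes, lay above 0 at P3 to P7 on 3 of 4 arrays (1.12 and 0.34 with the older mouse Ts1Cje, and 0.98 and -0.01 with the older mouse euploid). At P7 to P10 it lay below 0 on 3 of 3 (-1.59 with the older mouse Ts1Cje, and -0.54 and -0.34 with the older mouse euploid). The fitted values were 0.61 (SE 0.30, limma adjusted p = 0.400) and -0.96 (SE 0.35, limma adjusted p = 0.366).

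Counted together, 3 of the 9 genes passed a limma adjusted p of 0.05 between P3 and P7, against 1.26% of the 22225 genes and unnamed probes tested, and 6 passed the study's unadjusted threshold, against 12.9%. From P0 to P10, 1 of 9 passed after adjustment, against 0.045%, and 6 without it, against 8.05%. From P0 to P3 none passed after adjustment, against 0.036%, and 2 did without it (Olig1 and Mbp), against 7.25%. From P7 to P10 none passed after adjustment, against 0.0045%, and 4 did without it (Olig1, Sox10, Mog and Trf), against 9.09%. The median of the 9 fitted values was 0.61 at P3 to P7 and 0.36 from P0 to P10, beside -0.01 and 0.02 over all features tested.

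Other genes of the lineage were read from 7 lists with 62 names, of which 57 genes were tested. Between P3 and P7, 1 of the 57 passed after adjustment: Sirt2, a deacetylase abundant in myelin, rose by 0.83, or 1.78-fold (SE 0.16, limma adjusted p = 0.0103), and had 0.76 from P0 to P10. Of the 57, 28 lay above 0 at this step, and 28 also from P0 to P10. At the unadjusted threshold 3 were higher and 3 lower between P3 and P7, 10.5% of the 57, against 12.9% of all features. At P0 to P3, 5 were higher and 5 lower (17.5%, against 7.25%), at P7 to P10, 4 higher and 3 lower (12.3%, against 9.09%), and from P0 to P10, 4 higher and 1 lower (8.77%, against 8.05%). Among the 11 myelin proteins tested, Tspan2, a tetraspanin of oligodendrocytes, was higher at each step at the unadjusted threshold, by 0.52, 0.80 and 0.69, and by 2.01 (4.03-fold) from P0 to P10 (limma adjusted p = 0.108). Cldn11, the claudin of myelin tight junctions, had 1.99 from P0 to P10 (limma adjusted p = 0.520). Hapln2, which acts at nodes of Ranvier, was the one myelin protein gene past the unadjusted threshold in the lower direction, at -1.45 from P0 to P3, where Cd9 had 0.34. From P0 to P10, 7 of the 11 lay above 0 (median 0.36). Ermn (-2.32), Hapln2 (-1.60), Opalin (-0.71) and Mal (-0.14) lay below 0 over that span, short of the unadjusted threshold.

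Among the 8 precursor genes tested, the unadjusted threshold was passed by Ptprz1 (0.70) and Pcdh15 (-1.05) at P0 to P3, by the transcription factor Nkx2-2 (-0.42) at P3 to P7, by the proteoglycan Vcan (-0.88) at P7 to P10 and by Tnr (1.51) from P0 to P10. Bcas1, a gene of early myelinating cells, had 0.94 at P3 to P7, and Yy1, a transcription factor, -0.83 at P7 to P10. Of the 10 enzymes tested, 2 lay above 0 at P3 to P7 (median -0.18) and 8 from P0 to P10 (median 0.27). Among them, Apod had 0.97 at P0 to P3, and Car2 1.68 at P7 to P10. Aspa, which splits N-acetylaspartate, had -1.38 at P3 to P7 and 1.57 at P7 to P10. Of the signals, Pdgfa, the ligand of Pdgfra, had 0.99 at P0 to P3, and Nrg1 and its receptor Erbb3 had -1.03 and -0.83 at that step. Erbb3 then had 0.85 and the sphingosine phosphate receptor S1pr5 -0.75 at P7 to P10, and the lysophosphatidic acid receptor Lpar1 had -1.60 from P0 to P10. Sox6, which holds back differentiation, had -0.66 at P3 to P7, and Slc40a1, the iron exporter, -0.82 at P0 to P3. All of these missed the adjusted threshold, with adjusted p from 0.200 to 0.683.

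Markers of other cell types also moved with age. Of the 6 genes of astrocytes and Bergmann glia tested, Aqp4 and Gfap rose between P3 and P7, by 1.64 and 1.73 (limma adjusted p = 0.000159 and 0.0175), and Aqp4 also rose between P0 and P3, by 1.70, and from P0 to P10, by 3.49. The list did not move as a whole between P3 and P7, with 3 of 6 genes above 0 and a median of -0.01. Slc1a3, the glutamate transporter of these cells, had -0.41, Aldh1l1 -0.51 and Fabp7 -0.36, and Aldh1l1 had -1.04 at P7 to P10 (limma adjusted p = 0.296). Of the 5 granule cell genes, Neurod1 rose between P3 and P7 by 0.97 (limma adjusted p = 0.00799). The part of other cell types in the courses above was not tested.

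The second question was whether the Olig genes, with their extra copy, gave a higher signal in Ts1Cje cerebella. On the same-stage arrays Olig1 was higher in the Ts1Cje than in the euploid mouse on 11 of 14 arrays, with a mean of 0.23 ± 0.41 (SD, n = 14) and an exact two-sided sign-flip permutation p of 0.0574. At P0 all 4 arrays lay above 0, at 0.78, 0.38, 0.54 and 0.55. At P3 they lay at -0.75, -0.02, -0.31 and 0.20, so that 1 of 4 was above 0. At P7 they were 0.19, 0.31, 0.77 and 0.02, and at P10, where 2 arrays had a value, 0.38 and 0.16, all above 0. The direction was thus shared by the arrays of P0, P7 and P10, with 2 arrays at P10, while the test of differences between stages did not pass (moderated F test of limma, unadjusted p = 0.0686, adjusted p = 0.9999). The mean lay above 0 with either dye and either title prefix of the arrays, at 0.26 with Ts1Cje on Cy5 and 0.20 with Ts1Cje on Cy3, and at 0.20 on the 5 arrays of prefix ASJ and 0.25 on the 9 of prefix ATJ.

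**Figure D3:**
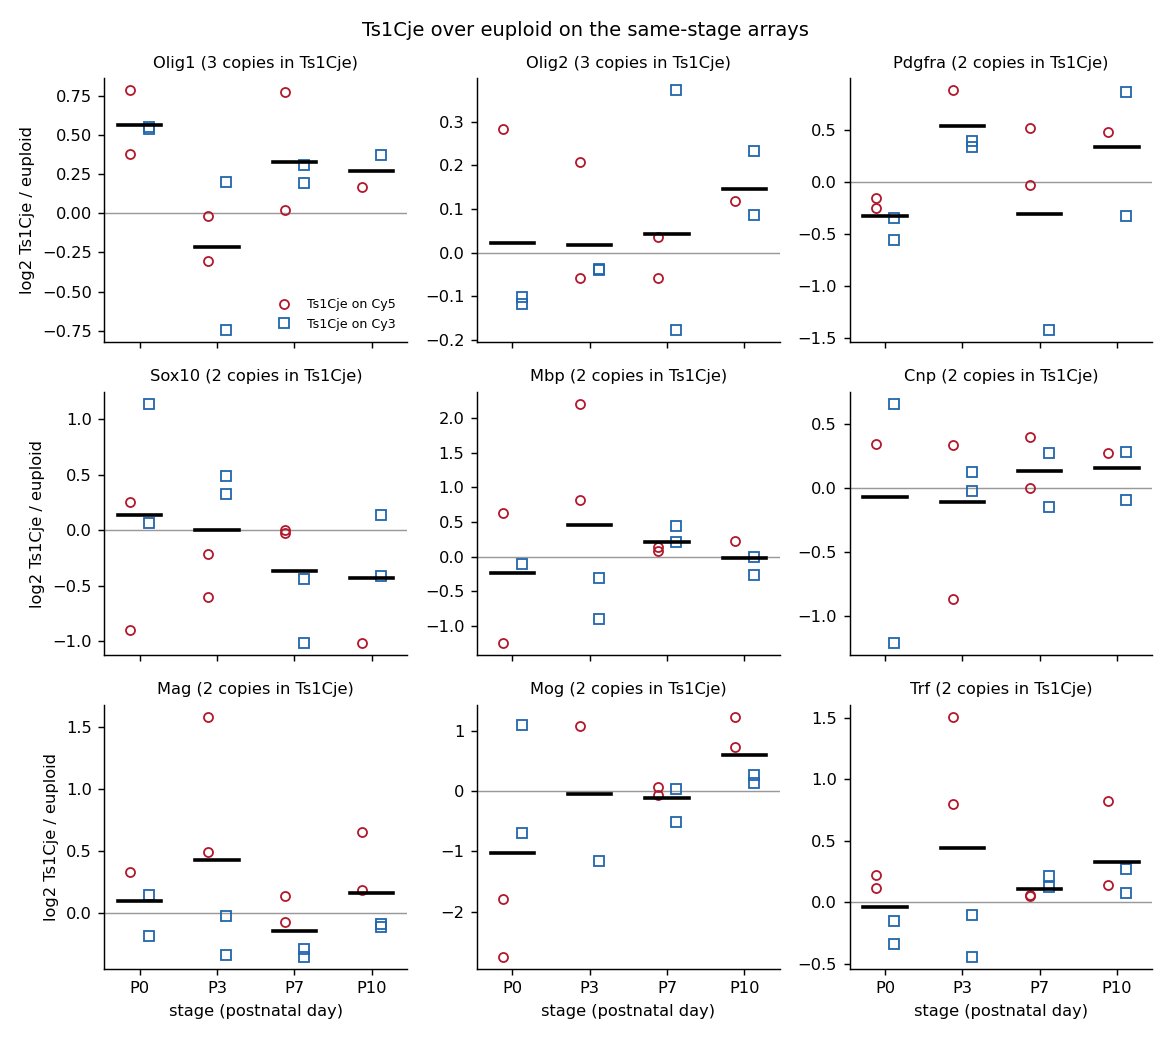
Log2 ratio of the Ts1Cje over the euploid mouse on the 16 same-stage arrays for each of the 9 genes, by stage, with the mean as a bar. Circles are arrays with Ts1Cje on Cy5 and squares those with Ts1Cje on Cy3. Olig1 lay above 0 on every array of P0, P7 and P10 that read it, Olig2 between -0.18 and 0.37, and Trf above 0 on all 8 arrays with Ts1Cje on Cy5.

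In the fit over all arrays, the Olig1 effect averaged over the 4 stages was 0.28 (SE 0.09), or 1.21-fold with a 95% interval of 1.07 to 1.38, whose upper bound lies below the 1.5-fold of the gene copies. It passed the unadjusted threshold (limma unadjusted p = 0.00562) and not the adjusted one (limma adjusted p = 0.993). By stage the fitted values were 0.56 (SE 0.17, 1.47-fold, interval 1.16 to 1.87) at P0, -0.13 (SE 0.15) at P3, 0.42 (SE 0.17, 1.34-fold) at P7 and 0.27 (SE 0.26) at P10. P0 and P7 passed the unadjusted threshold (limma unadjusted p = 0.00329 and 0.0208), and neither passed after adjustment (limma adjusted p = 0.859 and 0.9999). The P7 value was 0.33 without P7/P7 replicate 3 and 0.32 with same-stage arrays alone, and did not pass there (limma unadjusted p = 0.0969 and 0.113).

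Olig2, the neighbour of Olig1 on the same segment, gave a smaller and tighter signal. Its same-stage values ran from -0.18 to 0.37 with a median of 0.00, and 7 of 14 arrays lay above 0. The mean was 0.05 ± 0.17 (SD, n = 14), with an exact two-sided sign-flip permutation p of 0.256. All 3 values of P10 lay above 0, at 0.23, 0.09 and 0.12. The fitted mean effect was 0.10 (SE 0.06), or 1.07-fold with an interval of 0.976 to 1.17, and the stage values were 0.03 at P0, 0.02 at P3, 0.10 at P7 and 0.23 at P10. Set against each other within arrays, Olig1 was higher than Olig2 on 9 of 13, by 0.15 ± 0.44 (SD), and an exact two-sided sign-flip permutation test over the 13 arrays gave p = 0.247, so a difference between the pair was not shown.

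Among the 73 three-copy genes tested, 54 had a mean effect above 0 and the median was 0.14, beside 0.00 over all features. Olig1 ranked 21 and Olig2 ranked 42 of the 73 from the highest down. By stage, Olig1 ranked 8 at P0, 59 at P3, 17 at P7 and 25 at P10, and Olig2 ranked 55, 41, 40 and 30. The 2 measured three-copy genes on one side of the pair, Paxbp1 and 4932438H23Rik, had 0.22 (SE 0.15) and 0.24 (SE 0.23), and the 2 on the other side, the receptor genes Ifnar2 and Il10rb, had 0.08 (SE 0.10) and 0.05 (SE 0.08). The pair therefore lay among neighbours whose intervals all included 0. For scale, Sod1, at the edge of the segment, had 0.78 (1.72-fold, limma adjusted p = 0.00560), and Tmem50b, Ifngr2, Gart and Atp5o had 0.65, 0.52, 0.52 and 0.44, none of them past the adjusted threshold.

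**Figure D4:**
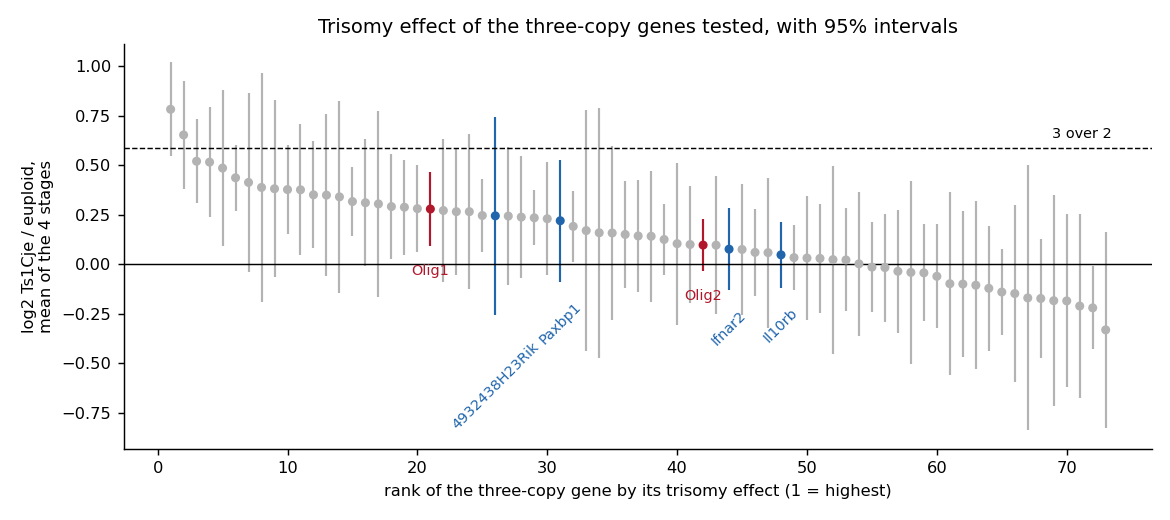
Trisomy effect of the 73 three-copy genes tested (log2 Ts1Cje over euploid, mean of the 4 stages), ranked from the highest, with 95% intervals. Olig1 (rank 21) and Olig2 (rank 42) are red, their measured neighbours blue, and the dashed line is the 1.5-fold of 3 copies over 2.

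The last question was whether the 2-copy genes of the lineage differed between Ts1Cje and euploid cerebella. None of the 9 genes passed an adjusted p of 0.05 in limma for the mean effect, against 0.018% of all features, and 1 (Olig1) passed without adjustment, against 4.08%. None passed after adjustment at P0, P3, P7 or P10, against 0%, 0.0045%, 0% and 0%. Without adjustment, 2 passed at P0 (Olig1 and Mog), 0 at P3, 1 at P7 (Olig1) and 0 at P10, against 4.43%, 5.61%, 1.73% and 5.21%. The moderated F test of the differences between stages passed for none with adjustment, against 0%, and for none without it, against 3.08%. The contrast of P10 minus P0 passed for none after adjustment, against 0%, and for Mog without it, against 4.09%.

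For the myelin genes the intervals of the mean effect bound how far the genotypes could differ on average over the stages. Single stages were bounded less tightly. The 95% interval of Mbp at P0 was 0.341 to 1.34-fold, and those of Mog were 0.258 to 0.938-fold at P0 and 0.745 to 2.69-fold at P10. Mbp had a mean effect of 0.888-fold with a 95% interval of 0.675 to 1.17. Its same-stage values were 0.63, -1.25 and -0.11 at P0, -0.90, 2.21, 0.82 and -0.31 at P3, 0.21, 0.45, 0.13 and 0.07 at P7, and -0.27, -0.01 and 0.23 at P10. The spread was widest at P3 and narrowest at P7, where all 4 values were above 0. Cnp had 1.18-fold (0.968 to 1.45), Mag 1.08-fold (0.905 to 1.28), Trf 1.11-fold (0.904 to 1.35) and Mog 0.877-fold (0.636 to 1.21). The precursor genes Pdgfra and Sox10 had 0.917-fold (0.716 to 1.18) and 0.950-fold (0.794 to 1.14). A difference as large as the Mbp step between P3 and P7 lay outside the interval of its mean effect, and differences within these intervals could not be detected with these arrays.

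Mog had the most uneven genotype values. At P0 they were -2.75, -1.78, 1.10 and -0.69, and at P10 they were 0.27, 0.14, 0.73 and 1.23. The fitted effect was -1.03 at P0 (SE 0.44, limma unadjusted p = 0.0330, adjusted p = 0.9999) and 0.50 at P10 (SE 0.44), and the difference of P10 minus P0 was 1.53 (SE 0.62, limma unadjusted p = 0.0252, adjusted p = 0.9996). Both low P0 arrays were of prefix ASJ and had Ts1Cje on Cy5, and over all same-stage arrays Mog averaged -0.87 on prefix ASJ (n = 6) and 0.37 on prefix ATJ (n = 8). Without P0/P0 replicate 1 or replicate 2 the P0 effect was -0.53 or -0.81 and no longer passed (limma unadjusted p = 0.253 and 0.128), and with a dye term for each prefix it was -0.85 (limma unadjusted p = 0.169). The difference of P10 minus P0 was also lost without either of them (1.03 and 1.31) and without P10/P10 replicate 4 (1.32).

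At P3, Mbp, Mag and Trf were high together on P3/P3 replicate 2, at 2.21, 1.58 and 1.50, and on replicate 3, at 0.82, 0.49 and 0.80, and low on replicate 1, at -0.90, -0.34 and -0.10, and on replicate 4, at -0.31, -0.03 and -0.44. The high pair had Ts1Cje on Cy5 and the low pair on Cy3. A dye term, fitted in addition, was called for Mag (0.35, SE 0.09, limma adjusted p = 0.0264) and Trf (0.38, SE 0.11, limma adjusted p = 0.0435), and for 1781 of 22225 features in all. Over the same-stage arrays, Trf averaged 0.47 with Ts1Cje on Cy5 (8 of 8 above 0) and -0.04 with Ts1Cje on Cy3 (4 of 8 above 0), and Mag averaged 0.47 (6 of 7) and -0.16 (1 of 8). For the age steps, the dye term left the Trf change of P3 to P7 at 1.46 and the Mag change at 1.03.

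The related lists were read for the genotypes as well. Of the 57 genes, none passed after adjustment for the mean effect or at any stage, and without adjustment 1 passed for the mean effect (1.75%, against 4.08% of all features), 3 at P0 (5.26%, against 4.43%), 1 at P3 (1.75%, against 5.61%), 0 at P7 (against 1.73%) and 1 at P10 (1.75%, against 5.21%). These were Yy1 for the mean effect (-0.31), Mobp (-1.57), Enpp2 (0.66) and Lpar1 (0.86) at P0, Nrg1 at P3 (0.64) and Tcf7l2, a transcription factor of differentiating oligodendrocytes, at P10 (-1.50). The medians of the 7 lists for the mean effect lay between -0.05 and 0.09. No marker gene of another cell type passed after adjustment for the mean effect or at any stage, and for the mean effect Calb1 of Purkinje cells (0.15) passed without it. By stage, the brainstem markers lay below 0 for 6 of 6 genes at P0 (from -1.22 to -0.12, median -0.53), the stage at which Mog and Mobp were low. At P3 they lay above 0 for 6 of 6 (from 0.11 to 2.76, median 0.46). Slc6a5 at 2.76 (SE 1.16, read on 17 arrays) and Hoxa5 at 0.69 were past the unadjusted threshold. Whether the genes of this list are particular to the brainstem was not tested. Also at P3, the markers of astrocytes and of meninges lay above 0 for 6 of 6 and 5 of 5. At P10, where Mog lay above 0, Egr2, a transcription factor of myelinating Schwann cells, had 1.11 and Pcp2 of Purkinje cells 0.57. Of the 3 Schwann cell genes tested, 2 lay above 0 at P10 (from -0.33 to 1.11), and of the 4 Purkinje cell genes, 3 did. Clic6 of the choroid plexus, itself a three-copy gene, had 0.87 at P7. Of the 6 choroid plexus genes tested, 2 lay above 0 at that stage (median -0.12). Egr2, Pcp2 and Clic6 passed the unadjusted threshold only. The part of these cell types in the lineage values was not tested.

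Among 5452 genes with a value on each of the 24 arrays that read Olig1, those whose signed log2 ratios followed it most closely were Ppp2r1a, Bag1, Taf10, Capzb and Prpf19 (Pearson r from 0.80 to 0.83), and Trf ranked 5268 with r = -0.64. For Olig2 (25 arrays, 5572 genes) they were C3, Nrxn2, Unc119, Slc29a4 and Lnpk (r from 0.66 to 0.71), and for Mbp (26 arrays, 2363 genes) Purb, Scamp4, Plet1, Cog7 and Eif2s3y (r from 0.70 to 0.75). No member of the 9 was among these. Eif2s3y is a gene of the Y chromosome, and the part of sex in the Mbp values was not tested. The correlations pool same-stage and cross-stage arrays that share dye, age and sex differences, and are descriptions only. Between the 9 genes themselves the highest r was that of Mag and Trf (0.85 over 25 arrays), the pair that carried a dye term, and the lowest those of Olig1 with Trf (-0.64, 24 arrays) and of Pdgfra with Mbp (-0.63, 19 arrays).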

How the data were processed

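Total RNA of individual cerebella was labelled with Cy5 or Cy3 and hybridised to 28 two-colour spotted arrays. Per the study's methods, the authors read the scans with GenePix Pro, subtracted local background and normalized each array by LOWESS, and what they deposited is 1 log2 ratio (Cy5 against Cy3) per spot. They removed control and irregular spots and spots under 1.2 times the local background, which are missing here, so the number of values per array (11354 to 23972) limits the precision. No raw scan was used. Ratios were signed Ts1Cje minus euploid from the dye labels (Ts1Cje on Cy5 on 14 arrays), or older minus younger.

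Probe symbols came from the platform annotation, brought up to date by accession for 15685 probes and by older symbol for 1694, while 2963 were current and 27 stayed as they were. Cnp is Cnp1 there. After 257 control spots were left out, probes were averaged per gene, and 22225 genes and unnamed probes with values on at least 14 arrays and 5 residual degrees of freedom were tested (18298 with a symbol). The 7 parameters were those of the study's ANOVA, development at P3, P7 and P10 and a trisomy effect at each stage, with no dye term. They were fitted by least squares per gene with contrasts exact under missing values, variances moderated with limma 3.58.1 (R 4.3.3), and Benjamini-Hochberg adjustment over all features at 0.05. Age contrasts average the genotypes. The unadjusted threshold of 0.05 is the study's. The fit was tested on simulated data. Single genes were tested by exact sign flips over arrays, two-sided.

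Plots were drawn with matplotlib 3.10.9 under Python 3.11.15, from tables handled with numpy 2.4.6 and pandas 2.3.3. Alternatives were dye terms, each genotype alone, same-stage arrays alone, no moderation, the array of conflicting labels left out or moved, probe medians, single probes, other array minimums, rescaled arrays, array weights and leaving out each array. Named genes were the 9 genes, genes of the related lists below an unadjusted p of 0.05 (up to 5 per list and contrast, for three-copy genes for the mean effect only), the 5 genes most correlated with Olig1, Olig2 and Mbp, and 2 three-copy neighbours on each side. The genes and lists were chosen with earlier results of these data known.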

Additional observations from a re-analysis of the deposited data

Results flagged for a closer look

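At P3, Olig2 was 0.21 on P3/P3 replicate 3 and between -0.06 and -0.04 on the other 3 arrays, a gap that set this array apart by Dixon's criterion. It was the only such value among 36 groups of at least 4 arrays examined over the 9 genes, and chance gives about 5% of groups.

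At P3, all 3 arrays that read Pdgfra had the higher signal in Ts1Cje (mean 0.53), and at P0 all 4 had the lower (mean -0.33). The signs of the 2 stages were opposite on every array that read it. The test of all differences between stages did not pass (moderated F test of limma, unadjusted p = 0.273, adjusted p = 0.9999), and the single difference of P3 minus P0 was not tested. The fitted effects, which also use the cross-stage arrays, were 0.12 (SE 0.37) at P3 and -0.33 (SE 0.35) at P0.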

How the results depend on the processing

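Of the 9 genes, 3 passed the adjusted threshold from P3 to P7. The number was 0 with Ts1Cje mice only, 0 with the array of conflicting stage labels taken as P7/P3, 1 (Mbp) with arrays scaled to the same median absolute deviation, and 4 (Mag added) with array weights. It was between 0 and 3 when each array was left out in turn. From P0 to P10, where 1 passed, the number was 0 with euploid mice only and 0 with the array of conflicting labels taken as P7/P3, and between 0 and 2 without 1 array, the second gene being Trf. All other contrasts kept 0 of the 9 genes under each alternative run. The causes were not tested. Taken as P7/P3, the array of conflicting labels left Mbp at 2.04, Olig1 at -0.77 and Trf at 1.17 for P3 to P7 (limma adjusted p = 0.123, 0.123 and 0.204). Over all features, the 280 calls of P3 to P7 ranged from 8 (that array taken as P7/P3) to 785 (array weights), the 10 of P0 to P10 from 1 to 26, the 8 of P0 to P3 from 1 to 25, the 1 of P7 to P10 from 0 to 69 and the 4 of the mean trisomy effect from 1 to 12. With each array left out in turn, the counts ran from 30 to 426, 3 to 27, 2 to 38, 0 to 265 and 3 to 7 for these contrasts, in the same order. Against the unadjusted threshold, 3706 alternative fits of the 90 gene and contrast values gave the same call in 3613, a lost one in 54, a gained one in 39 and a reversed one in 0. The Mog effect at P0 lost its unadjusted call with a dye term for each title prefix, with same-stage arrays alone, without either of 2 P0 arrays, and when the 3 sparsest arrays were left out. No paired analysis was possible because the labels give no replicate numbers or litters that would link arrays. The pairing of 1 mouse of either genotype within an array is in each ratio and its sign-flip test. Few arrays per stage limit what could be detected, and Mog, Mbp and Pdgfra had the largest errors for the mean trisomy effect (SE 0.22, 0.19 and 0.17).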
